A study of Mus musculus with 394 samples.

Results

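RNA bound to HA-tagged ribosomes was immunoprecipitated (IP) from ventral midbrain (VM) synaptosomes of mice with and without DAT-Cre, and the IPs of the 2 genotypes were compared. The libraries were chosen by their labels: ventral midbrain synaptosome, RiboTag immunoprecipitation, Cre-positive (Cre+, 8 libraries) or Cre-negative (Cre-, 6 libraries). These 14 IPs are part of 42 VM synaptosome libraries, the others being 16 Cre+ and 12 Cre- Inputs of the same lysates, and the whole series holds 394 libraries. All mice were 10 to 14 months old and carried a RiboTag allele, from which Cre recombination produces ribosomal protein eL22 with an HA tag. Cre was expressed from 1 DAT allele (DAT-IRES-Cre), so the tag depends on cells that use the dopamine transporter locus, and the Cre- mice had no source of the tag. A synaptosome fraction of ventral midbrain was lysed, anti-HA antibody and beads captured the tagged ribosomes, and RNA was counted as unique molecular identifiers (UMIs) at 3′ ends on 1 plate whose wells were pooled before amplification. There are more Inputs than IPs and the labels do not tie any library to a mouse, so p-values measure the spread between libraries, and those that use Inputs may be too small.

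Midbrain dopaminergic (mDA) neurons make dopamine from tyrosine through TH and DDC, load it into vesicles through VMAT2 and take it back up through the dopamine transporter. Unlike most neurons they also release transmitter from their dendrites, which hold ribosomes, whereas their axons leave the midbrain for the striatum. Homogenized midbrain reseals into particles that carry pieces of dendrite, soma and local terminals of many cell types, together with glial processes. An IP from Cre- mice holds no tagged ribosomes of its own and serves as the control for RNA that sticks to the antibody and beads.

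Sequencing depth was 16533 to 43351 UMIs in the Cre- IPs (median 19421) and 36968 to 111750 in the Cre+ IPs (median 80003). Inputs held 33287 to 70717 UMIs in Cre- and 34749 to 95186 in Cre+ mice. Depth therefore differed between the IP groups, and 1 UMI in a Cre- IP is a larger share of its library than in a Cre+ IP. Cre+ IP replicates 2, 3, 5 and 7 stood apart from the rest: against the closest library of their own group their counts differed by a chi-square per degree of freedom of 4.79 to 8.08, where the other Cre+ IPs lay at 1.75 to 1.96, the Cre- IPs at 1.43 to 3.48 and the Inputs at 1.15 to 1.82. The same 4 libraries held 1729 to 2506 CPM (the UMIs of a gene per 1000000 UMIs of its library) of the predicted gene Gm42642 and 6210 to 8428 CPM of Lars2, a mitochondrial leucyl-tRNA synthetase, against 0 to 99.6 and 427 to 1391 CPM in the other 10 IPs. For most genes named below as called, the result is given with and without these 4 libraries where the call depends on them. No 2 libraries were alike within counting noise (largest chi-square p of a closest pair 0.00162).

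Cre+ IPs yielded more UMIs. The geometric mean of total UMIs was 72262 in Cre+ and 23320 in Cre- IPs, a ratio of 3.10 (exact two-sided permutation test over 3003 regroupings, p = 0.000999). Without the 4 libraries that stood apart the ratio was 2.39 (exact permutation p = 0.0143). Inputs of the same genotypes differed less, by a ratio of 1.24 (two-sided permutation test with 100000 permutations, p = 0.0422). Total UMIs were used as the measure of yield because the wells of the plate were amplified as 1 pool. In a bulk IP, more tagged fragments and more RNA per fragment cannot be told apart.

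Relative to the rest of the RNA in each library, the Cre+ IPs held more of several mRNAs of mDA neurons and less RNA of glia, neurofilaments and mitochondria. Of 8718 genes with at least 10 UMIs over the 14 IPs, 105 (1.2%) were called at an adjusted p under 0.05 (edgeR quasi-likelihood test, Benjamini-Hochberg over all genes tested). Of these, 34 were higher in Cre+ IPs (0.39% of genes tested) and 71 were lower (0.814%), and the median log2 fold change of all genes was 0.11. The balance of directions rests on how libraries are scaled: with TMM scaling 147 genes were higher and 34 lower, the median of all genes then being 0.42, and with TMMwsp 109 were higher and 33 lower at a median of 0.38. All 34 genes called higher stayed so under both of these scalings, and 31 of them under all 4 scalings tried, as did 33 of the 71 called lower. Without the 4 libraries, 128 of 6023 genes were called (2.13%), 33 higher (0.548%) and 95 lower (1.58%), including 20 of the 34 and 57 of the 71. The sign turned for 5 of the 34 without them: Gm42642 (4.23 to -0.66), Gm8254 (4.12 to -0.33), Angptl2 (5.16 to -0.22), Alg11 (3.75 to -0.40) and Gm43094 (5.50 to -1.66). Leaving out Cre- IP replicate 1, the deepest Cre- IP, lowered the number called from 105 to 44, and leaving out Cre- IP replicate 6 lowered it to 68.

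**Figure D1:**
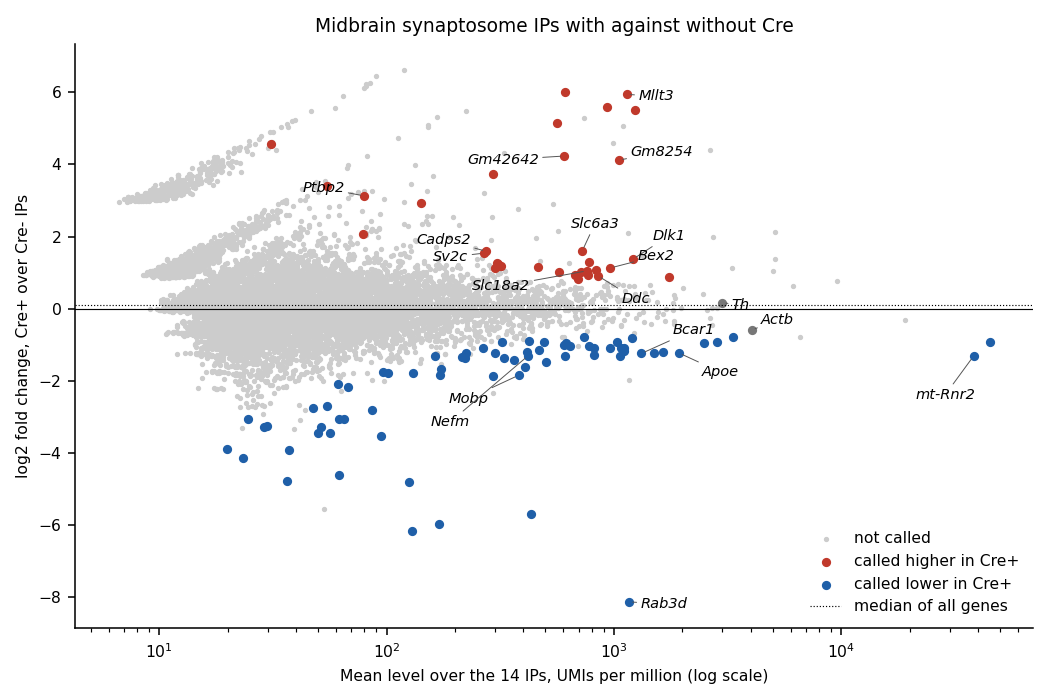
Log2 fold change between Cre+ and Cre- VM synaptosome IPs against the mean level over the 14 IPs in CPM (log scale), 1 point per gene tested. Red and blue points are the 34 genes called higher and the 71 called lower, dark grey marks Th and Actb, which were not called, and the dotted line is the median of all genes at 0.11. The bands of points at the upper left are genes with few UMIs, whose fold changes are poorly determined.

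The clearest differences were in genes that handle dopamine. Slc6a3 (chr13:73536747-73578672, GRCm38, plus strand), which encodes the dopamine transporter, was present at 182 CPM in the lowest, 311 in the median and 472 in the highest Cre- IP, and at 567, 1146 and 1292 CPM in the Cre+ IPs. The 2 groups did not overlap, and the 2 lowest Cre+ values belonged to replicates 5 and 7. As molecules, 3 to 18 Slc6a3 UMIs were captured per Cre- IP and 43 to 135 per Cre+ IP. The log2 fold change was 1.60 ± 0.23 (SE, adjusted p = 3.0e-04), and 1.64 ± 0.24 without the 4 libraries (adjusted p = 3.0e-05). Inputs did not show it: the log2 fold change there was -0.54 ± 0.16 (adjusted p = 0.34), with medians of 213 CPM in Cre+ and 254 CPM in Cre- Inputs. The change in IP over Input between genotypes, the genotype:fraction interaction, was 2.04 ± 0.28 on the log2 scale (adjusted p = 1.3e-06). The lower Input value in Cre+ mice enters this figure. Slc6a3 is also the locus that carries Cre on 1 allele in Cre+ mice, and an effect of that allele on its count was not tested.

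Slc18a2 (chr19:59260896-59296012, plus strand) encodes VMAT2, the vesicular monoamine transporter. Its level was 254 to 797 CPM in Cre- IPs (median 482) and 734 to 1145 CPM in Cre+ IPs (median 1000). The highest Cre- IP thus lay above the lowest Cre+ IP. The log2 fold change was 1.05 ± 0.25 (adjusted p = 0.029), but 0.78 ± 0.25 without the 4 libraries (adjusted p = 0.11), so this call depends on them. The interaction with the Inputs was 1.49 ± 0.28 (adjusted p = 4.3e-04). A lower Input value in Cre+ mice, a log2 fold change of -0.44, enters this figure too.

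Ddc (chr11:11814101-11898144, minus strand) encodes aromatic L-amino acid decarboxylase, the last enzyme of dopamine synthesis. It ranged from 363 to 747 CPM in Cre- IPs (median 551) and from 803 to 1414 CPM in Cre+ IPs (median 976), without overlap. The log2 fold change was 0.91 ± 0.21 (adjusted p = 0.021) and 0.89 ± 0.23 without the 4 libraries (adjusted p = 0.021). Here the Cre- IPs were not free of enrichment: Ddc was 1.07 ± 0.23 higher than in Cre- Inputs on the log2 scale (adjusted p = 9.9e-04), against 2.25 ± 0.15 in Cre+ mice.

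Th (chr7:142892752-142931128, minus strand) encodes tyrosine hydroxylase, the rate-limiting enzyme of dopamine synthesis. Its share was not shown to differ between IP groups: 1857 to 3508 CPM in Cre- IPs (median 2935) and 1970 to 4476 CPM in Cre+ IPs (median 2890), overlapping over most of their range. The log2 fold change was 0.16 ± 0.18 with an approximate 95% interval from -0.19 to 0.52 (adjusted p = 0.76), and 0.42 ± 0.19 without the 4 libraries (adjusted p = 0.30) whose values were the 4 lowest of the Cre+ IPs. Th was nevertheless above Input in both genotypes, by 1.59 ± 0.12 in Cre+ (adjusted p = 1.3e-19) and by 1.22 ± 0.14 in Cre- mice (adjusted p = 1.2e-09). In molecules the groups were apart, at 55 to 95 Th UMIs per Cre- IP and 162 to 309 per Cre+ IP. All UMIs together were 3.10 times as many in Cre+ IPs, and the UMIs of 6.56% of all genes tested did not overlap in this direction.

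**Figure D2:**
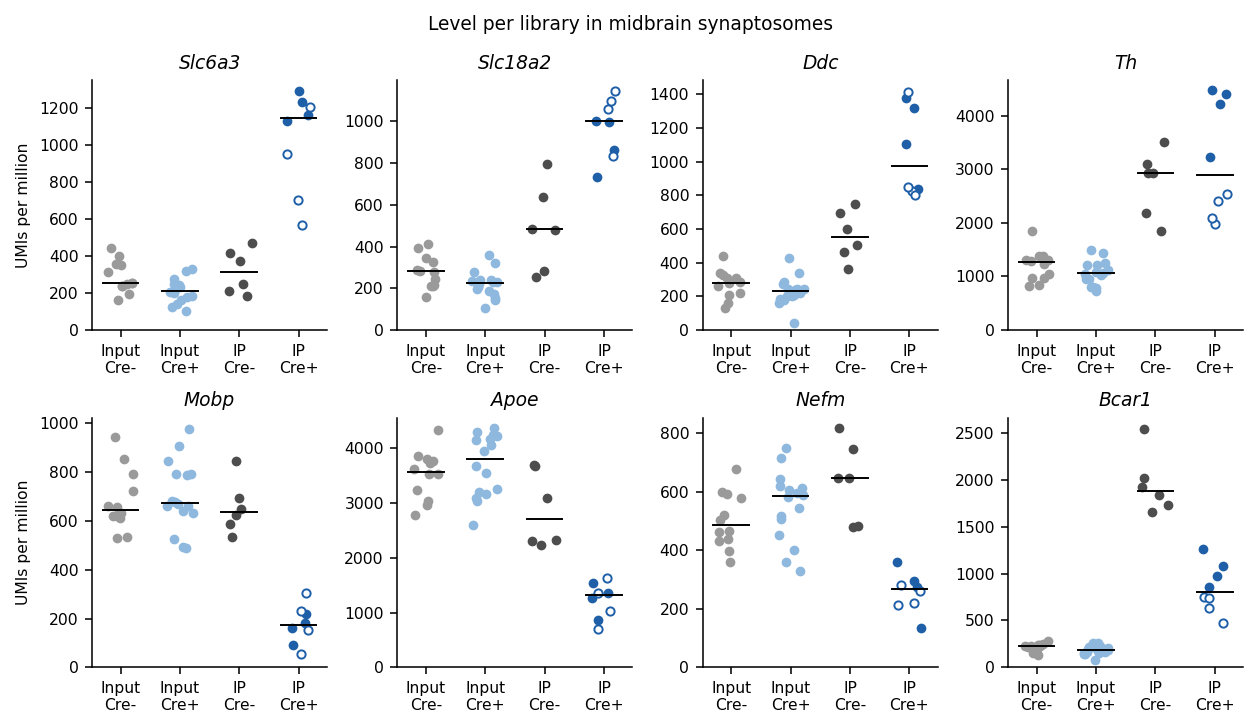
Level of 8 genes in CPM in each VM synaptosome library, by fraction and genotype, with 1 point per library and the group median as a bar. Open circles are Cre+ IP replicates 2, 3, 5 and 7. Slc6a3 and Ddc separate the IP groups, Th does not, Mobp, Apoe and Nefm are lowest in Cre+ IPs, and Bcar1 is highest in Cre- IPs.

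The 2 mRNAs therefore stood in different proportion in each kind of library. The number of Th UMIs per Slc6a3 UMI was 3.93 to 19.3 in Cre- IPs (median 10.0) and 2.10 to 3.79 in Cre+ IPs (median 3.06), which do not overlap. In Inputs it was 2.75 to 7.27 in Cre- (median 4.05) and 3 to 7.70 in Cre+ mice (median 5.06). Summed over libraries, the ratio was 7.38 (384 to 52 UMIs) in Cre- IPs and 2.94 (1794 to 610 UMIs) in Cre+ IPs. This ratio was computed after the values of both genes had been seen and was not tested. It takes no account of the Cre allele at the Slc6a3 locus of Cre+ mice.

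Of the list of 12 genes for dopamine synthesis and handling, all of which were tested, Slc6a3, Slc18a2 and Ddc rose and none fell, with a median log2 fold change of 0.69 beside 0.11 for all genes. Gch1, which makes the cofactor of TH, had 0 to 2 UMIs per Cre- IP and 3 to 16 per Cre+ IP and did not pass (log2 fold change 1.66 ± 0.61, adjusted p = 0.22). Summed over the list, the Cre- IPs held 84 to 168 UMIs (median 104) and the Cre+ IPs 323 to 770 (median 489). That is 4.36 times as many (exact permutation test of log2 UMIs, p = 3.3e-04, the smallest that 8 against 6 libraries allow, adjusted p = 0.0015 over 23 lists), where all UMIs together were 3.10 times as many. Without the 4 libraries the list held 4.04 times as many (exact permutation, adjusted p = 0.016), beside 2.39 times for all UMIs. As a share of the library the list was 1.42 times as high (exact permutation, adjusted p = 0.026) and 1.70 times without the 4 libraries (adjusted p = 0.012).

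Transcription factors that specify mDA neurons are low-abundance mRNAs. Of 12 on the list 10 were tested and none was called, with a median log2 fold change of 0.74, while TMM scaling called 2 higher. Nr4a2, a nuclear receptor needed for the mDA identity, had 53.3 to 213 CPM in Cre- IPs (median 107) and 154 to 317 CPM in Cre+ IPs (median 199), a log2 fold change of 0.94 ± 0.30 (adjusted p = 0.15). En1, an engrailed homeobox gene, gave 0.76 ± 0.28 (adjusted p = 0.23). Summed, the 12 factors reached 9 to 21 UMIs per Cre- IP and 32 to 102 per Cre+ IP, 4.94 times as many (exact permutation, adjusted p = 0.0015), and as a share 1.71 times as high (adjusted p = 0.0077). Against Inputs of Cre+ mice, 7 of the 10 were called higher (6.87% of all genes were) at a median of 1.86.

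Among 23 tested receptors, channels and subtype markers of mDA neurons, Ret rose and Slc17a6 fell. Ret encodes the receptor tyrosine kinase for GDNF family ligands. It measured 92.3 to 242 CPM in Cre- IPs (median 180) and 244 to 521 CPM in Cre+ IPs (median 449), just without overlap, at a log2 fold change of 1.25 ± 0.27 (adjusted p = 0.014). Slc17a6, the vesicular glutamate transporter VGLUT2 that a subset of mDA neurons and many other midbrain neurons use, was at 49.8 to 302 CPM in Cre- IPs and 8.95 to 135 CPM in Cre+ IPs. Its log2 fold change was -1.78 ± 0.44 (adjusted p = 0.038), and -1.59 ± 0.48 without the 4 libraries (adjusted p = 0.074). With TMM scaling the list had 3 members higher and none lower. Summed, the list held 4.02 times as many UMIs in Cre+ IPs (exact permutation, adjusted p = 0.0015). As a share it was 1.31 times as high and did not pass (exact permutation, adjusted p = 0.062). Without the 4 libraries the share was 1.49 times as high (adjusted p = 0.040).

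Aldh1a1, Slc10a4 and Sncg, like Th, were not called between IP groups and lay above Input in Cre- mice. Among these, Aldh1a1 came closest to a call. Aldh1a1, a retinaldehyde dehydrogenase of ventral mDA neurons, had a log2 fold change between IP groups of 0.68 ± 0.20 (adjusted p = 0.096), Slc10a4, a vesicular carrier protein of monoaminergic neurons, of -0.07 ± 0.26 (adjusted p = 0.95), and Sncg, γ-synuclein, of 0.28 ± 0.19 (adjusted p = 0.57). The sign for Slc10a4 turned to 0.30 with TMM, 0.26 with TMMwsp and 0.08 without the 4 libraries. Each was above Input in Cre- mice, by 0.82 ± 0.19 (adjusted p = 0.0033), 1.57 ± 0.28 (adjusted p = 6.7e-05) and 0.88 ± 0.19 (adjusted p = 0.0011). In Cre+ mice they lay above Input by 1.64 ± 0.13, 1.34 ± 0.19 and 1.60 ± 0.14. mDA mRNAs other than Th and Ddc were thus also above Input in IPs of mice without Cre. The wells of Cre+ and Cre- IPs were pooled before amplification, and the source of these mRNAs in Cre- IPs was not tested.

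Several genes outside these lists rose with Cre. Dlk1 (chr12:109452823-109463336, plus strand), a transmembrane ligand related to Notch ligands that mDA neurons express, was at 448 to 959 CPM in Cre- IPs (median 586) and 1125 to 2491 CPM in Cre+ IPs (median 1671). The groups did not overlap, and the log2 fold change was 1.37 ± 0.20 (adjusted p = 2.5e-04). In Inputs it was -0.20 ± 0.13 (adjusted p = 0.92). Bex2, a small brain-expressed protein, ranged from 423 to 693 CPM in Cre- IPs and from 754 to 1596 CPM in Cre+ IPs, a log2 fold change of 1.13 ± 0.19 (adjusted p = 0.0020). Cox7b, a subunit of cytochrome c oxidase, ranged from 302 to 640 CPM and from 705 to 1651 CPM, at 1.07 ± 0.20 (adjusted p = 0.0050). Dlk1, Slc6a3, Bex2 and Cox7b were the 4 genes that stayed called higher under all 4 scalings, by DESeq2, with each IP left out in turn and without the 4 libraries.

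These 4 genes stood differently against their Inputs. Dlk1 was 1.90 ± 0.13 above Input in Cre+ IPs (adjusted p = 3.3e-21) and 0.36 ± 0.19 in Cre- IPs (adjusted p = 0.51). Bex2 was 0.93 ± 0.11 above Input with Cre (adjusted p = 9.2e-11) and -0.26 ± 0.16 without (adjusted p = 0.59). Cox7b was close to Input in Cre+ IPs, at 0.26 ± 0.11 (adjusted p = 0.11), and below it in Cre- IPs, at -0.79 ± 0.16 (adjusted p = 8.3e-04). A higher share in Cre+ IPs therefore did not always come with a level above Input.

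Ptbp2, a neuronal splicing regulator, was nearly undetected in the shallower Cre- IPs. It gave 2 UMIs in all 6 Cre- IPs together and 83 in the 8 Cre+ IPs, where every library held 4 to 20. Per UMI sequenced this was a ratio of 10.1 (exact 95% interval 2.70 to 84.5, counting error only). The test across genes gave an adjusted p of 0.0081, and 0.021 without the 4 libraries. In Inputs it was detected at medians of 43.7 and 60.0 CPM, and the interaction with the Inputs did not pass (2.53 ± 0.81, adjusted p = 0.13).

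Tmsb10, an actin-sequestering β-thymosin, rose by a log2 fold change of 1.28 ± 0.28 (adjusted p = 0.018), Vsnl1, a neuronal calcium sensor, by 1.01 ± 0.22 (adjusted p = 0.018), and Fgf13, an intracellular partner of sodium channels, by 1.26 ± 0.29 (adjusted p = 0.023). All 3 kept their call without the 4 libraries. Not all genes on the list of 34 are like these. In 6 of them over 50% of all IP UMIs came from 1 library: Mllt3 and Alg11 from Cre+ replicate 5, Twf2 from replicate 2, Angptl2 from replicate 3, Ccdc17 from replicate 4 and Gm43094 from replicate 7. Mllt3, for example, had 1252 UMIs in that library and 47 in the other 13 IPs. Between the IP groups the CPM of 11 of the 34 did not overlap, against 0.505% of all genes tested, and the UMIs of 25 did not overlap, against 6.56%. The 34 were called on these same libraries, so a larger share than among all genes follows from the selection.

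mRNAs for synaptic vesicle proteins rose in part. Of 33 tested members of the list for vesicle fusion and recycling, Sv2c, Cplx2 and Rab3c were called higher and none lower, at a median log2 fold change of 0.28. With TMM scaling 7 were higher and none lower. Sv2c, a vesicle glycoprotein enriched in the basal ganglia, was at 63.0 to 242 CPM in Cre- IPs (median 130) and 159 to 487 CPM in Cre+ IPs (median 377), a log2 fold change of 1.54 ± 0.32 (adjusted p = 0.012), but 1.23 ± 0.37 without the 4 libraries (adjusted p = 0.073). Cplx2, complexin 2, which clamps SNARE complexes, was at 121 to 498 CPM (median 222) and 438 to 832 CPM (median 573), a log2 fold change of 1.15 ± 0.26 (adjusted p = 0.020). Rab3c, a small GTPase of secretory vesicles, was at 409 to 648 CPM (median 482) and 681 to 1512 CPM (median 846), at 0.92 ± 0.21 (adjusted p = 0.026), and did not pass without the 4 libraries (0.79 ± 0.23, adjusted p = 0.062). Rab3c did not overlap between groups, while Sv2c and Cplx2 did.

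Cadps2, which primes dense core vesicles, was at 46.1 to 320 CPM in Cre- IPs (median 84.8) and 268 to 546 CPM in Cre+ IPs (median 358), a log2 fold change of 1.59 ± 0.34 (adjusted p = 0.016). Of the 17 dense core vesicle genes it was the only one to rise. Pcsk1n, an inhibitor of prohormone convertase, fell (-0.77 ± 0.19, adjusted p = 0.040), but did not pass without the 4 libraries (-0.68 ± 0.20, adjusted p = 0.068). With TMM scaling 2 genes of this list were higher and none lower, and the list median of 0.16 was -0.10 without the 4 libraries. Scg2, a granin, did not pass, at 0.47 ± 0.17 (adjusted p = 0.23). The same held for the vesicle genes Syt1, the calcium sensor of release (0.57 ± 0.17, adjusted p = 0.10) and Cplx1 (0.65 ± 0.19, adjusted p = 0.099). In the interaction model, which adds the Inputs, Syt1 (0.75 ± 0.17, adjusted p = 0.0078), Cplx1 (0.72 ± 0.19, adjusted p = 0.030) and Scg2 (0.67 ± 0.18, adjusted p = 0.041) did pass, in a fit that called 0.347% of 12960 genes higher and 0.664% lower. Sv2c did not pass there (1.61 ± 0.48, adjusted p = 0.084), and Vamp1, a vesicle SNARE, was lower (-1.58 ± 0.43, adjusted p = 0.044). The 2 fits share the IPs and are not independent.

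No active zone gene passed among 14 tested, at a median of 0.62 that turned to -0.09 over the 12 tested without the 4 libraries. With TMM scaling 1 was higher. Erc2, an active zone scaffold, measured 53.3 to 213 CPM in Cre- IPs (median 118) and 189 to 361 CPM in Cre+ IPs (median 284), a log2 fold change of 1.14 ± 0.32 (adjusted p = 0.075). Rims1, which docks vesicles near calcium channels, had 0 to 4 UMIs per Cre- IP and 6 to 21 per Cre+ IP, at 1.32 ± 0.45 (adjusted p = 0.17). In molecules the vesicle list was 4.07 times and the active zone list 4.12 times as high in Cre+ IPs (exact permutation, adjusted p = 0.0015 and 0.0021), beside a ratio of 3.10 for all UMIs. As shares they were 1.32 and 1.40 times as high (exact permutation, adjusted p = 0.011 for both), the active zone list not passing without the 4 libraries (1.41 times, adjusted p = 0.063). None of 20 tested genes of dendrites and postsynaptic sites passed (median -0.36), nor did any of 18 pacemaking channels and pumps (median 0.17) or 22 genes of the endoplasmic reticulum and secretory pathway (median 0.04, and -0.20 without the 4 libraries). Among 78 genes for respiratory chain subunits encoded in the nucleus, Cox7b rose and Ndufs8 fell (median 0.14), while TMM called 11 higher and none lower, and TMMwsp 7 higher and none lower. Without the 4 libraries 4 of these genes rose and 1 fell. Summed, the share of this list was 1.09 times as high in Cre+ IPs (exact permutation, adjusted p = 0.47). Without the 4 libraries it was 1.35 times as high (adjusted p = 0.012), and that of the vesicle list 1.445 times (adjusted p = 0.012).

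mRNAs of glia made up less of the Cre+ IPs. Of 17 oligodendrocyte genes tested, 8 fell and none rose, at a median log2 fold change of -1.21. Mobp (chr9:120149707-120181484, plus strand), a myelin protein gene, was at 533 to 847 CPM in Cre- IPs (median 635) and 53.7 to 307 CPM in Cre+ IPs (median 172), a log2 fold change of -1.85 ± 0.30 (adjusted p = 0.0018). The groups did not overlap. Mbp, myelin basic protein, fell by 1.09 ± 0.25 on the log2 scale (adjusted p = 0.021), Trf, transferrin, by 1.61 ± 0.28 (adjusted p = 0.0023), and Apod, apolipoprotein D, by 1.28 ± 0.22 (adjusted p = 0.0020).

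Ptgds, prostaglandin D synthase, was called in opposite directions in IPs and Inputs. It was lower in Cre+ IPs, at -1.19 ± 0.20 (adjusted p = 0.0022), with 1760 to 3569 CPM in Cre- (median 2337) and 582 to 1496 CPM in Cre+ IPs (median 1066). In Inputs it was higher in Cre+ mice, at 0.43 ± 0.10 (adjusted p = 0.048), in a comparison that called 0.146% of 11610 genes. That Input call depends on the setting: with the closest Inputs summed no gene was called higher, and DESeq2 called none in either direction.

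Of 21 astrocyte genes 6 fell and none rose (median -1.04), among them Apoe, Glul, Aldoc, Mt1 and Sparcl1. Without the 4 libraries 7 of 18 tested fell and 1, Mt3, rose. Apoe, apolipoprotein E, was at 2238 to 3686 CPM in Cre- IPs (median 2707) and 698 to 1627 CPM in Cre+ IPs (median 1311), a log2 fold change of -1.23 ± 0.21 (adjusted p = 0.0022) with no overlap. Glul, glutamine synthetase, fell by 1.20 ± 0.25 on the log2 scale (adjusted p = 0.011), while Cst3, cystatin C, gave -0.43 ± 0.18 (adjusted p = 0.31). C1qb, a complement gene of microglia, fell by 1.66 ± 0.34 (adjusted p = 0.012), the 1 called gene of 9 tested on the microglial list (median -1.10). Ly6c1 and Vtn fell among 3 tested endothelial and mural genes. None passed among 6 GABAergic neuron genes (median -0.62), 4 red blood cell genes (median -1.01), 3 oligodendrocyte precursor genes (median -0.88) or 6 nuclear RNAs (median -1.17), and no serotonergic gene reached 10 UMIs. Without the 4 libraries 1 of 4 nuclear RNAs tested, Malat1, was called lower. With TMM scaling the oligodendrocyte list had 5 genes lower and the astrocyte list 1 lower and 1 higher, and the list medians less that of all genes were -1.31 and -1.11, as against -1.31 and -1.15 with the scaling used here.

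A lower share is not a lower number of molecules. The oligodendrocyte list held 160 to 477 UMIs per Cre- IP (median 215) and 187 to 633 per Cre+ IP (median 295), 1.29 times as many (exact permutation, adjusted p = 0.28). The astrocyte list held 192 to 491 UMIs (median 261) and 259 to 789 (median 476), 1.70 times as many (exact permutation, adjusted p = 0.032; without the 4 libraries 1.43 times, adjusted p = 0.27). No gene called lower had fewer UMIs in every Cre+ IP than in any Cre- IP, and none of the 8718 genes did. By UMIs 15 of 23 lists passed the test and all 15 were higher in Cre+ IPs, and by CPM 12 passed, 4 higher and 8 lower. The test by UMIs is against no difference, while all UMIs together were 3.10 times as many in Cre+ IPs. Passing it therefore does not set a list apart from the yield. Without the 4 libraries 11 lists passed by UMIs, all higher.

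**Figure D3:**
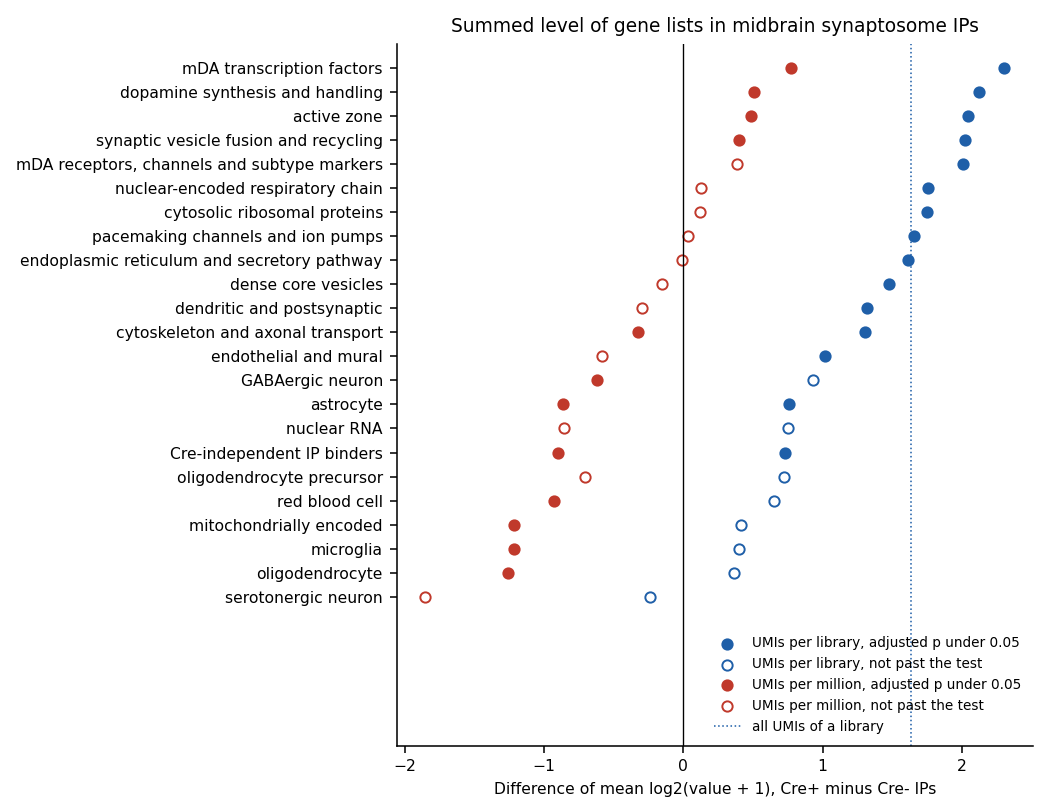
Difference of mean log2(value + 1) between Cre+ and Cre- VM synaptosome IPs for the summed level of 23 gene lists, as UMIs per library (blue) and as CPM (red). Filled points passed an exact permutation test with adjusted p under 0.05 and the dotted line is the difference for all UMIs of a library. In UMIs, the lists of mDA neurons, synaptic vesicle genes and the active zone lie to the right of that line. So, by less, do those of cytosolic ribosomal proteins, the nuclear-encoded respiratory chain and pacemaking channels. The dense core vesicle list lies to its left, and glial and mitochondrial lists lie far to its left but not below 0 in UMIs.

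The cytoskeleton list lost 5 of 31 tested genes and gained none (median -0.32). Nefm, the medium neurofilament subunit, was at 480 to 818 CPM in Cre- IPs (median 647) and 135 to 361 CPM in Cre+ IPs (median 267), a log2 fold change of -1.31 ± 0.23 (adjusted p = 0.0027) without overlap. The other subunits, Nefh (-1.13 ± 0.22, adjusted p = 0.0066) and Nefl (-1.08 ± 0.22, adjusted p = 0.011), fell alongside it, as did Map1a, a microtubule-associated protein (-1.01 ± 0.19, adjusted p = 0.0049), and Dync1h1, the dynein heavy chain (-1.82 ± 0.41, adjusted p = 0.020). With TMM scaling 1 gene of this list was lower and 1 higher. Unlike the glial genes, 8 of the 31 genes on this list were called above Input in IPs without Cre (1.19% of all genes were). Of the 5 genes that fell, Nefh and Dync1h1 were among them. Nefm, Nefl and Map1a were not, and were called below Input in Cre+ mice. Nefh was 1.36 ± 0.19 above Input in Cre- mice (adjusted p = 2.3e-07) and 0.03 ± 0.15 in Cre+ mice (adjusted p = 0.93), and Dync1h1 was 1.36 ± 0.31 (adjusted p = 0.0038) and -0.37 ± 0.28 (adjusted p = 0.46). Actb, β-actin, showed 0.47 ± 0.11 over Input without Cre (adjusted p = 0.0052) and -0.11 ± 0.09 with it (adjusted p = 0.52), and between IP groups gave -0.59 ± 0.17 (adjusted p = 0.096).

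Transcripts made inside mitochondria, which cytosolic ribosomes do not read, took 5.56 to 9.33% of UMIs in Cre- IPs and 2.01 to 4.21% in Cre+ IPs, against 6.39 to 11.3% in Inputs. Of 10 tested protein-coding genes of the mitochondrial genome 6 fell and none rose (median -1.05), and 2 were lower with TMM or TMMwsp scaling. mt-Co1, a cytochrome c oxidase subunit, fell by 1.30 ± 0.23 on the log2 scale (adjusted p = 0.0027), and the ribosomal RNA mt-Rnr2 by 1.31 ± 0.23 (adjusted p = 0.0023). mt-Rnr2 was also lower in Cre+ Inputs, by 0.35 ± 0.08 (adjusted p = 0.031). Leaving mitochondrially encoded genes out of the totals, the ratio of UMIs between the IP groups was 3.25 (exact permutation p = 0.000999).

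Bcar1 (chr8:111710474-111743809, minus strand), an adaptor protein of focal adhesions, was bound without a tag. It belongs to a list of such binders that was chosen on libraries of this series, so its direction here is not independent evidence. Bcar1 was the 1 called gene of 6 tested binders (median -0.71). Its level was 1654 to 2540 CPM in Cre- IPs (median 1881) and 474 to 1260 CPM in Cre+ IPs (median 807), against medians of 229 and 180 CPM in Inputs. It was above Input by 3.23 ± 0.16 on the log2 scale in Cre- mice (adjusted p = 7.5e-29) and by 2.20 ± 0.13 in Cre+ mice (adjusted p = 1.2e-23). Between the IP groups it fell by 1.24 ± 0.17 (adjusted p = 2.3e-04). In molecules Bcar1 was not lower in Cre+ IPs, with 31 to 75 UMIs per Cre- IP (median 40) and 39 to 87 per Cre+ IP (median 61.5).

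**Figure D4:**
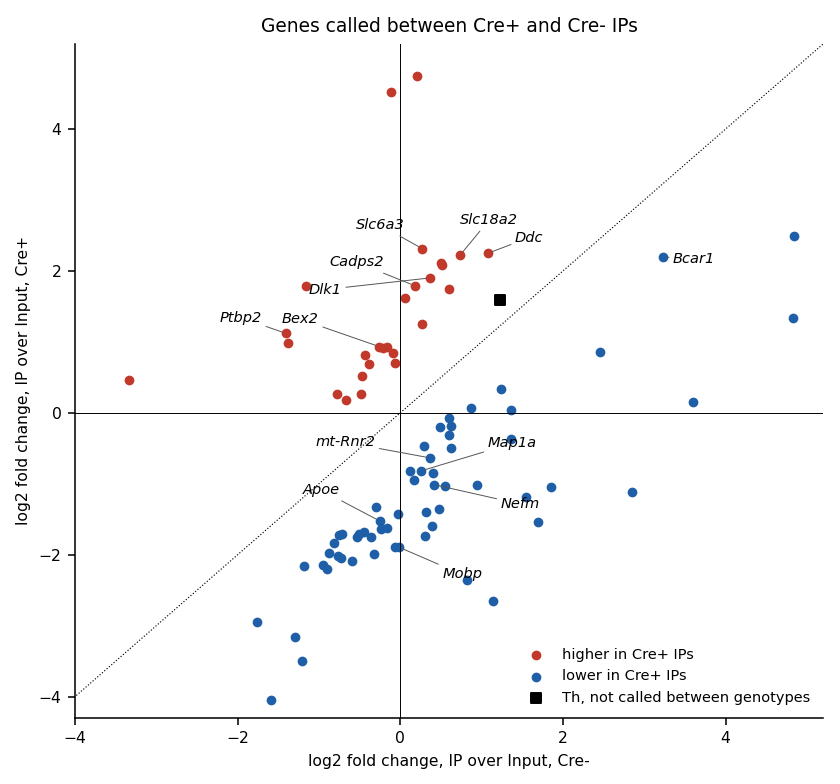
Log2 fold change of IP over Input in Cre+ mice against that in Cre- mice for genes called between the IP groups (red higher, blue lower in Cre+ IPs), with Th as a square and the diagonal dotted. 86 genes are drawn, 17 with over 50% of their IP UMIs in 1 library are left out and 2 lie outside the axes. Slc6a3, Dlk1 and Cadps2 lie near 0 on the horizontal axis, Th and Ddc to its right, and the axes share the libraries on which the genes were called.

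Rpl22 itself, the tagged gene, was counted per gene, and the counts do not tell the tagged from the untagged transcript. It was at 53.3 to 349 CPM in Cre- IPs and 65.1 to 143 CPM in Cre+ IPs, with a log2 fold change of -0.66 ± 0.35 (adjusted p = 0.42). Of 78 cytosolic ribosomal protein genes none passed between the IP groups, at a median of 0.07, while TMM called 4 higher. Summed, their share was 1.09 times as high in Cre+ IPs (exact permutation, adjusted p = 0.54). Without the 4 libraries it was 1.32 times as high (adjusted p = 0.042). Against Input, 64 of the 78 genes were lower and 1 higher in Cre+ mice, in a comparison that called 6.09% of genes lower, and 42 lower and none higher in Cre- mice, where 0.972% of genes were lower.

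Some genes called lower draw most of their UMIs from 1 library. Rab3d had 701 UMIs in Cre- IP replicate 1 and 6 in the other 13 IPs together. 11 of the 71 drew over 50% of their IP UMIs from 1 library. The predicted genes Gm10800, Gm10801, Gm21738 and Gm26870, whose reads may be shared between near-identical copies, had between 46.3% and 58.8% of their IP UMIs in Cre- replicate 1, but all 4 stayed called lower with each IP left out in turn. Among the 71, the CPM of 27 did not overlap between the groups, against 0.459% of all genes, but they were called on these same libraries. Of the 71, 16 stayed called lower under all 4 scalings, by DESeq2, with each IP left out in turn and without the 4 libraries, among them Mobp, Apoe, Trf, Apod, Ptgds, Sparc, Nefm, Bcar1, mt-Rnr2, mt-Co1, Gm10800, Gm10801 and Gm26870.

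Inputs were close to alike. Between genotypes 17 of 11610 Input genes were called (0.146%), 2 higher (0.0172%) and 15 lower (0.129%), at a median log2 fold change of -0.01. None of the 34 genes called higher in Cre+ IPs was called in Inputs, and their median there was -0.09. Of the 71 called lower, 60 could be tested in Inputs, 2 were called, mt-Rnr2 in the same direction and Ptgds in the opposite one, and the median was -0.03. No gene of the lists for dopamine handling, transcription factors or receptors of mDA neurons was called in Inputs, their medians being -0.24, -0.18 and -0.17.

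More genes were called between IP and Input in Cre+ than in Cre- mice. In Cre+ mice 1679 of 12960 genes were called, 890 higher (6.87%) and 789 lower (6.09%), and in Cre- mice 280 (2.16%), 154 higher (1.19%) and 126 lower (0.972%). Cre+ IPs were both deeper and more numerous, whose part in these counts was not tested. Without the 4 libraries the number called in Cre+ mice was 777, and the balance turned to 288 higher and 489 lower. By list, 17 of 24 receptors and subtype markers were higher and Slc17a6 lower in Cre+ mice, and in Cre- mice 4 were higher: Aldh1a1, Slc10a4, Calb2 and Cck. All 17 oligodendrocyte genes were lower in Cre+ mice, and 3, among them Mal and Car2, in Cre- mice. Of 8 GABAergic neuron genes, 6 were lower in Cre+ mice and Gad2 alone in Cre- mice. The direct test of the difference between genotypes, the interaction, called 45 genes higher and 86 lower of 12960, or 81 in all without Cre- IP replicate 1. Without the 4 libraries the interaction called 21 higher, 17 of them among the 45, and 89 lower. Its balance of directions rests on the scaling as well: TMM gave 128 higher and 47 lower. In Cre- mice TMM gave 98 genes above and 257 below Input, the median of all genes moving from -0.06 to -0.34.

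The same contrast of Cre+ and Cre- IPs exists for whole SNc and VTA tissue, which hold the cell bodies, and for striatal synaptosomes, which hold the axon terminals. Cre called 644 of 6969 genes in SNc IPs (9.24%, 4.98% higher and 4.26% lower, 4 Cre+ and 6 Cre- libraries), 742 of 6646 in VTA IPs (11.2%, 4.74% higher and 6.42% lower, 4 and 6 libraries) and none of 3529 in striatal synaptosome IPs (4 and 4 libraries, 185 genes at an unadjusted p under 0.05). Some mDA genes had a smaller Cre effect in VM synaptosomes than in tissue, by a test of the difference. Of 12 dopamine genes 2 were called lower against SNc and 3 against VTA, of 10 transcription factors 1 and 1, and of 23 receptors and subtype markers 1 and 3, with none higher, where 0.288% and 0.206% of all genes were lower. Th rose by a log2 fold change of 2.01 ± 0.30 in SNc and 2.66 ± 0.27 in VTA IPs, and the difference of VM synaptosomes from them was -1.76 ± 0.37 (adjusted p = 0.010) and -2.43 ± 0.31 (adjusted p = 6.1e-06). Slc10a4 rose by 4.18 ± 0.41 and 3.16 ± 0.38 in tissue, a difference of -4.16 ± 0.49 (adjusted p = 1.2e-07) and -3.15 ± 0.48 (adjusted p = 1.1e-04). Dlk1 differed by -1.97 ± 0.33 (adjusted p = 3.7e-04) and -2.00 ± 0.33 (adjusted p = 3.1e-04), Slc18a2 by -1.94 ± 0.45 (adjusted p = 0.026) and -2.60 ± 0.47 (adjusted p = 0.0012), and Sncg by -3.29 ± 0.42 (adjusted p = 2.4e-06) and -1.90 ± 0.36 (adjusted p = 0.0024).

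Slc6a3 did not pass that test: its Cre effect was 2.93 ± 0.28 in SNc and 2.91 ± 0.29 in VTA, and the differences were -1.26 ± 0.36 (unadjusted 95% interval -1.97 to -0.54, adjusted p = 0.12) and -1.24 ± 0.37 (-1.98 to -0.51, adjusted p = 0.14). The vesicle genes Cadps2 and Cplx2 gave differences of 0.72 ± 0.63 and 0.11 ± 0.44 against SNc and -0.20 ± 0.52 and -0.60 ± 0.38 against VTA, none past the test (adjusted p of 0.54 or more), and the 95% intervals reached from -0.51 to 1.96 for Cadps2 against SNc and from -1.34 to 0.14 for Cplx2 against VTA. Syt1 gave a difference of -2.11 ± 0.28 from VTA (adjusted p = 6.1e-06) and of -0.76 ± 0.31 from SNc (adjusted p = 0.33). In the other direction, Bcar1 fell more with Cre in tissue, its log2 fold change being -3.06 ± 0.31 in SNc and -3.46 ± 0.35 in VTA IPs, a difference of 1.94 ± 0.32 (adjusted p = 4.0e-04) and 2.30 ± 0.35 (adjusted p = 1.1e-04). mt-Cytb gave -3.41 ± 0.35 in VTA and -0.94 ± 0.22 in VM synaptosomes, the difference being 2.56 ± 0.42 (adjusted p = 2.6e-04).

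Across all genes, the Cre effect differed from SNc tissue for 41 of 10767 genes (0.381%), 10 higher (0.0929%) and 31 lower, and from VTA tissue for 51 of 10674 (0.478%), 29 higher (0.272%) and 22 lower, the medians of all genes being 0.45 and 0.44. Against striatal synaptosomes edgeR called none of 9852 genes, with 713 at an unadjusted p under 0.05, and DESeq2 called 22. The striatal IPs held 21218 to 54675 UMIs, SNc IPs 28772 to 92936 and VTA IPs 19805 to 68966, and the edgeR test detected no difference from the striatum at this depth. Dlk1 gave 1.95 ± 0.47 (adjusted p = 0.35), Slc6a3 1.41 ± 0.54 (adjusted p = 0.56) and Apoe -1.27 ± 0.33 (adjusted p = 0.35) for VM minus striatal synaptosomes. Plate and preparation cannot be told apart in the levels, and only differences between genotypes within a preparation were compared.

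**Figure D5:**
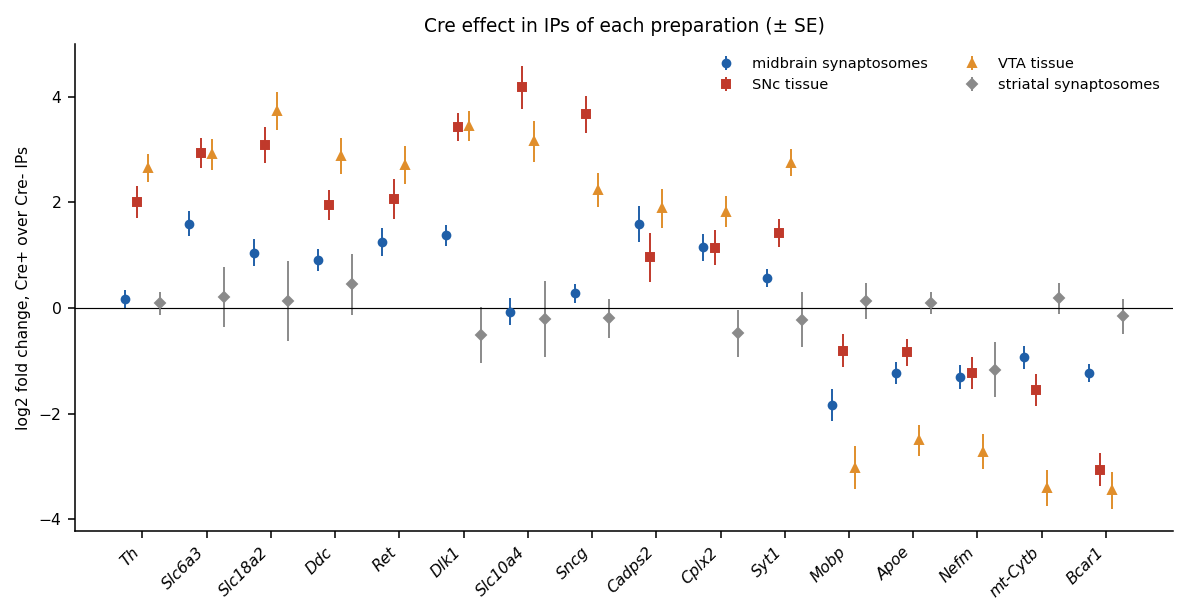
Log2 fold change of Cre+ over Cre- IPs with its SE for 16 genes in VM synaptosomes, SNc tissue, VTA tissue and striatal synaptosomes, where a missing point was not tested. Th, Slc10a4 and Sncg lie near 0 in VM synaptosomes and above 2 in both tissues, Cadps2 and Cplx2 lie above 0 in VM synaptosomes and both tissues, and striatal synaptosomes lie near 0 for most genes.

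Full-length libraries of SNc and VTA tissue from Cre+ mice (3 IPs and 3 Inputs each, no Cre- mice) gave a separate view of the same genes. Of the 34 genes higher in Cre+ VM synaptosome IPs, 29 were measured, and in 23 of them every SNc IP lay above every SNc Input, against 50.6% of all genes measured, and in 24 of 29 in VTA, against 56.9%. Of the 71 lower genes, every IP lay below every Input in 28 of 64 in SNc (15.0% of all genes) and in 43 of 63 in VTA (15.3%). The other way, every IP lay above every Input in 15 of the 64 in SNc and 10 of the 63 in VTA. These counts are descriptions with no test, since 3 against 3 libraries cannot reach an exact permutation p under 0.10.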

How the data were processed

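The deposited values used here are UMI counts per gene in 42 VM synaptosome libraries and in 28 IP libraries of other preparations, and read counts per gene in 12 full-length libraries. The UMI tables were made by the authors with STAR on GRCm38 and GENCODE vM10, after removal of poly(A) stretches, by collapsing UMIs per gene. For the full-length libraries the submitters' notes name Bowtie2, STAR 2.6.7a, featureCounts 1.6 and GRCm38.p6. Coordinates come from GENCODE vM21. 5 vector entries that are no mouse genes were left out.

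Genes with at least 10 UMIs over the libraries of a fit were tested with edgeR 4.0.16 (quasi-likelihood, R 4.3.3) on the counts, scaled by DESeq2 1.42.0 median-of-ratios size factors, with Benjamini-Hochberg adjustment at 0.05. The SE of a log2 fold change is its size over the root of its F statistic, and 95% intervals are ± 1.96 SE. CPM are the UMIs of a gene per 1000000 UMIs of its library. Totals and lists, as log2(UMIs + 1), were compared by exact permutation. IPs alone entered the comparison of IPs, and all 42 libraries the interaction. A library was said to stand apart where its chi-square per degree of freedom to the closest library of its group exceeded 4.5, a limit set after the values were seen. Scripts were tested on simulated counts. Tools also included Python 3.11.15 with scipy 1.17.1.

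Genes named are those the study names for this experiment, in each direction the 8 called genes of smallest p among the more abundant ones, up to 4 genes of each list, the 3 called genes per direction for each difference from another preparation, Rpl22 and the binders. A few genes that this rule selects are not reported here. Others were added after their values were seen. Libraries, lists and rules were chosen with earlier results of these data known. Columns of other samples were not used.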

Additional observations from a re-analysis of the deposited data

Results flagged for a closer look

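Among 88 sets of values, 3 held a library far from the others of its group, where chance gives about 1 in 20. The summed level of mDA transcription factors was lowest in Cre- IP replicate 2, at 283 CPM against a group median of 514. That of oligodendrocyte precursor genes was highest in Cre- IP replicate 6, at 363 CPM against 119. That of nuclear RNAs was highest in Cre+ IP replicate 3, at 2764 CPM against 713.

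The effect of Cre differed between VM synaptosome and SNc tissue IPs, by the edgeR test of the difference, by 4.41 for Acaca (acetyl-CoA carboxylase), 1.94 for Bcar1, 3.15 for Zyg11b, -4.16 for Slc10a4, -3.29 for Sncg and -15.8 for Rab3d on the log2 scale. The value for Rab3d comes from single libraries. Against VTA tissue the differences were 2.30 for Bcar1, 2.94 for Malat1 (a nuclear long non-coding RNA), 2.56 for mt-Cytb, -3.15 for Slc10a4, -2.11 for Syt1 and -2.43 for Th. Adjusted p-values ranged from 5.4e-08 for Rab3d to 0.0071 for Zyg11b.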

How the results depend on the processing

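No paired analysis was possible because the labels carry no mouse number. The count of genes called between IP groups, 105, became 181 with TMM scaling, 264 with no filter on low counts and 247 with all 42 libraries in 1 fit, and 44 to 106 with each IP left out in turn. In Inputs, 17 became 35 with no filter, 10 with at least 50 UMIs, 0 by DESeq2 (294 genes at an unadjusted p under 0.05), 32 with the older quasi-likelihood method and 10 with the closest Inputs summed, and 12 to 20 with a library left out. Other ranges with a library left out were 81 to 156 for the interaction, 1458 to 1686 and 220 to 286 for IP over Input in Cre+ and Cre- mice, 14 to 16 for lists and 2.89 to 3.51 for the ratio of totals. IP over Input in Cre+ mice gave 777 without the 4 libraries. Against striatal synaptosomes, 0 became 5 with TMM, 5 with TMMwsp, 43 with no filter, 22 by DESeq2 and 10 without the 4 libraries, and 0 to 1 with a library left out. Against SNc, 41 became 27 with TMM, 106 with no filter, 90 with at least 50 UMIs and 135 by DESeq2 (29 to 49 with a library left out), and against VTA, 51 became 114, 101 and 127 under the last 3 (37 to 74). The cause was not tested. The older method, the omission of the 4 libraries and the summed Inputs were chosen after seeing the data. The planned fit with like libraries merged gave no value, since none were alike within noise.

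Of genes called higher, 5 turned without the 4 libraries: Gm42642 to -0.66, Gm8254 to -0.33, Angptl2 to -0.22, Alg11 to -0.40 and Gm43094 to -1.66. Among genes not called, Bsg (-0.33) gave 0.021 with TMM, Neat1 (3.68) -0.22 by DESeq2, Nedd9 (-0.26) 0.075 with TMM and 0.030 with TMMwsp, and Slc10a4 (-0.07) 0.30, 0.26 and, without the 4 libraries, 0.079. With an IP left out in turn, Neat1 ranged from -0.10 (without Cre+ replicate 3) to 4.06, Nedd9 from -0.50 to 0.23 (without Cre- replicate 4), Slc10a4 from -0.27 to 0.10 and Slc32a1 from -0.97 to 0.0061. Lists higher by UMIs were lower by CPM (difference of mean log2) for dense core vesicles -0.15, dendritic genes -0.30, endoplasmic reticulum -0.0076, cytoskeleton -0.32, astrocyte -0.87, oligodendrocyte -1.26, oligodendrocyte precursor -0.70, microglia -1.22, endothelial -0.59, red blood cell -0.93, GABAergic -0.62, nuclear RNA -0.86 (and -0.018 by UMIs without the 4 libraries), binders -0.90 and mitochondrial genes -1.22. A median of 19421 UMIs per Cre- IP limits the precision of genes with a few UMIs.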
